A study of Mus musculus with 42 samples.

Results

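The genes described here are 9 that are often used as internal references when RNA is compared between samples: Gapdh, Pgk1, Actb, Eef1a1, Ppia, Tbp, Hprt, Gusb and B2m. They were taken by name from the 47729 gene identifiers of the deposited tables, and all 9 were present. They were chosen by name with measured values of these libraries known, in particular the low exon counts of Gapdh beside its RPKM, so the comparison of exon counts with RPKM is given as a description without a test. The libraries were made from liver of 3 untreated mice, all Gfi1Cre/+;Rpl22HA/HA. In such mice the Cre recombinase of the Gfi1 locus switches on an HA tag on the ribosomal protein Rpl22. Input was the RNA of the whole homogenate and IP the RNA recovered with the tagged ribosomes. The RNA of each mouse and fraction was divided over 7 protocols, which gave 14 groups of 3 libraries and 42 libraries. The protocols were TruSeq with 70 ng (Tru70) and 4 ng (Tru4), NEBNext Ultra Directional with 4 ng (NEB), NuGEN Ovation V2 with 4 ng (NuG), SMART-Seq v4 with 4 ng (SMTseq4) and 0.25 ng (SMTseq0.25), and SMARTer Stranded Pico with 4 ng (SMTer). The age was 30 days by the growth protocol and the study's methods, while the stage label gave 1 day. Every group carried both alleles, no untagged liver was included, and a cell whose ancestor once expressed Gfi1 keeps the tag, so IP stands for a mixture of cell types. The SMART-Seq v4 libraries were sequenced at another centre than the rest, and this cannot be told apart from the kit.

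A reference gene is useful when its transcript stays at the same level in every sample, so that other genes can be read against it. The 9 genes serve different basic functions. Gapdh and Pgk1 encode consecutive enzymes of glycolysis, Actb encodes the cytoplasmic beta actin of the cytoskeleton, Eef1a1 the elongation factor that brings aminoacyl-tRNA to the ribosome, and Tbp the TATA-box binding protein of the transcription machinery. Ppia encodes cyclophilin A, a prolyl isomerase that helps proteins fold. Hprt encodes the enzyme of purine salvage, Gusb a lysosomal glucuronidase, and B2m the light chain of MHC class I molecules. Transcripts of several of these genes have been copied back into the mouse genome many times, and such processed pseudogenes can be almost identical to the mRNA.

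Total exon counts ranged from 464199 to 762562 in SMTer and from 3223153 to 45466334 in the other protocols, and 3 counts correspond to between 0.0660 and 6.46 CPM, the customary scaling of counts to the library's total. In SMTer 76.8% to 93.8% of the counted reads or pairs fell on no feature, against 3.18% to 27.6% elsewhere, so values of SMTer are given apart. In 8 libraries, both fractions of replicate 3 in NEB, NuG, SMTer and Tru4, the values went against the labels. Actb was higher in IP than in input in 17 of 21 pairs as labelled, and the 4 exceptions were these 4 pairs. The summed CPM of 8 hepatocyte markers was higher in the library labelled IP in 4 of 21 pairs, the same 4 pairs. A table of the study gives the feature numbers of these libraries under the opposite fraction, and with the 8 fractions exchanged Actb was higher in IP in 21 of 21 pairs and the hepatocyte sum in 0. Gfi1 itself, the gene that drives Cre, was higher in IP in 12 pairs as labelled and in 14 after the exchange. In every other pair after the exchange, both libraries held 0 counts of Gfi1. Per-library values below are given after the exchange, and tests in these 4 protocols are given as labelled and exchanged. The exchange rests on that table, and because Actb was read in this check, its direction in these 4 protocols is not independent of it.

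Cell type markers differed between the fractions, and their sums belong beside every difference between IP and input below. In Tru70 the 8 hepatocyte markers summed to between 154536 and 170122 CPM in input and between 30579 and 32369 CPM in IP. The 9 Kupffer cell markers summed to between 415 and 487 CPM in input and between 17617 and 25648 CPM in IP. The 5 erythroid markers summed to between 1557 and 2509 CPM in input and between 129447 and 225794 CPM in IP. Sums of 4 T cell and 4 B cell markers were at most 2.60 and 2.44 CPM in input and at least 88.6 and 147 CPM in IP. In the other protocols apart from SMTer the order was the same, with erythroid sums of at least 16449 CPM in IP and at most 2127 CPM in input. In SMTer the erythroid sums overlapped, from 515 to 860 CPM in input and from 770.05 to 1480 CPM in IP, while hepatocyte sums lay between 27098 and 63573 CPM in input and between 5719 and 15211 CPM in IP, and Kupffer cell sums between 267 and 353 CPM and between 1551 and 3893 CPM. No marker of the hepatocyte, Kupffer cell and erythroid lists was at 0 in Tru70, and the part of the cell mixture in any result was not tested. In such bulk RNA, fewer cells of a type and less RNA per cell cannot be told apart.

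The sequences below show why a 60-base read, the length to which the authors trimmed, may or may not belong to 1 gene. In annotated transcripts of other genes (GENCODE M21, GRCm38), with 60-base windows and at most 2 mismatches, the limit of the authors' alignment, Gapdh had a near-identical copy in 304 other genes, 293 of them pseudogenes. For each of 3 genes the coding window with many copies is shown with 1 copy, in which capitals mark the mismatches, counted from 1 at the 5′ end of the window.
Gapdh, exon 4, chr6:125162896-125162955, minus strand: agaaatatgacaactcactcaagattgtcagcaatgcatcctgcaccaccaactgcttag
Gm4609, processed copy, C14A: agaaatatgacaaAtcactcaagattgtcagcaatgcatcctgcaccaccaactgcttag
Ppia, exon 4, chr11:6419195-6419254, plus strand: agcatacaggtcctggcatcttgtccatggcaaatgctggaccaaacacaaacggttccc
Gm6061, processed copy, C53T: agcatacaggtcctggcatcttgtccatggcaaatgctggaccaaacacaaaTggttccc
Pgk1, exon 8, chrX:106200205-106200264, plus strand: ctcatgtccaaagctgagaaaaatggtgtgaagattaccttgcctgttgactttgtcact
Pgk1-ps1, T15C and T47C: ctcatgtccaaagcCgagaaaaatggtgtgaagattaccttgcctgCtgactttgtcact

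The Gapdh window was found in 152 other genes, 69 of them without a mismatch. The Ppia window was found in 27 other genes, 10 of them without a mismatch, and the Pgk1 window in 4, of which 2 matched exactly. Windows from the start of the coding sequence of Gusb and B2m are shown for contrast, since neither had such a copy in any other annotated transcript.
Gusb, exon 1, chr5:130002757-130002816, minus strand: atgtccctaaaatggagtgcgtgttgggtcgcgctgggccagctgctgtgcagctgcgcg
B2m, exon 1, chr2:122147738-122147797, plus strand: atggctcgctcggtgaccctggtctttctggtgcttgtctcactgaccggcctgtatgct

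Over whole transcripts the 9 genes differed in the share of windows that had a copy. Gapdh (chr6:125161715-125166467, minus strand) had a copy for 83.8% of its windows and for 100% of its coding windows. Pgk1 (chrX:106187100-106203699, plus strand), Ppia (chr11:6415443-6419817, plus strand) and Eef1a1 (chr9:78478449-78489151, minus strand) likewise had one for 100% of their coding windows, and for 67.8%, 60.8% and 78.1% of all windows. Actb (chr5:142903115-142906754, minus strand) had one for 63.2% of its coding windows. Hprt (chrX:52988137-53021659, plus strand), Gusb (chr5:129989011-130003049, minus strand) and B2m (chr2:122147686-122153083, plus strand) had none. Tbp (chr17:15499888-15528379, plus strand) had copies for 1.40% of its windows and none in its coding sequence, yet these few windows were found in 280 other genes, 98 at most for a window, while the copies of Pgk1 lay in 6 other genes. Some of its exons overlap exons of Pdcd2 on the opposite strand, as exons of Gapdh overlap those of Iffo1.

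Exon counts and RPKM gave different levels for the genes with copies. RPKM, which relates reads to gene length and library size, was found to be scaled by the whole span of a gene, introns included, and by all mapped alignments, so the whole number of alignments over the gene could be recovered from it. For each library the exon count was set against these alignments, with a counted pair taken as 2 of them. A value near 100% says that both tables held about as many reads, not that the reads were the same. Outside SMTer, 36 libraries, the median was 102% for Actb (78.8% to 119%), 105% for Hprt (84.6% to 118%), 102% for B2m (96.5% to 117%) and 103% for Gusb (87.1% to 127%). The median was 3.85% for Gapdh (0% to 30.3%) and 2.67% for Ppia (0.164% to 9.53%). Pgk1 lay between, with 21.01% (6.41% to 46.5%), as did Tbp with 48.1% (0% to 81.7%) and Eef1a1 with 52.0% (20.05% to 85.6%). The exon counts leave out reads with several alignments, which the counting step lists apart, while RPKM includes them. For the 4 genes near 100% the tables held about as many reads, and for the other 5 they did not. The share also differed by protocol, for Actb from 78.8% to 92.9% in NEB and from 114% to 119% in NuG. The scaled values of these 4 could still differ, since CPM is scaled by total exon counts and RPKM by all mapped alignments. In SMTseq0.25 the mean log2 difference of IP from input was 0.89 by CPM and 0.17 by RPKM for Hprt. It was 0.99 and 0.21 for Gusb, -0.16 and -0.89 for B2m, and 3.07 and 2.19 for Actb.

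**Figure D1:**
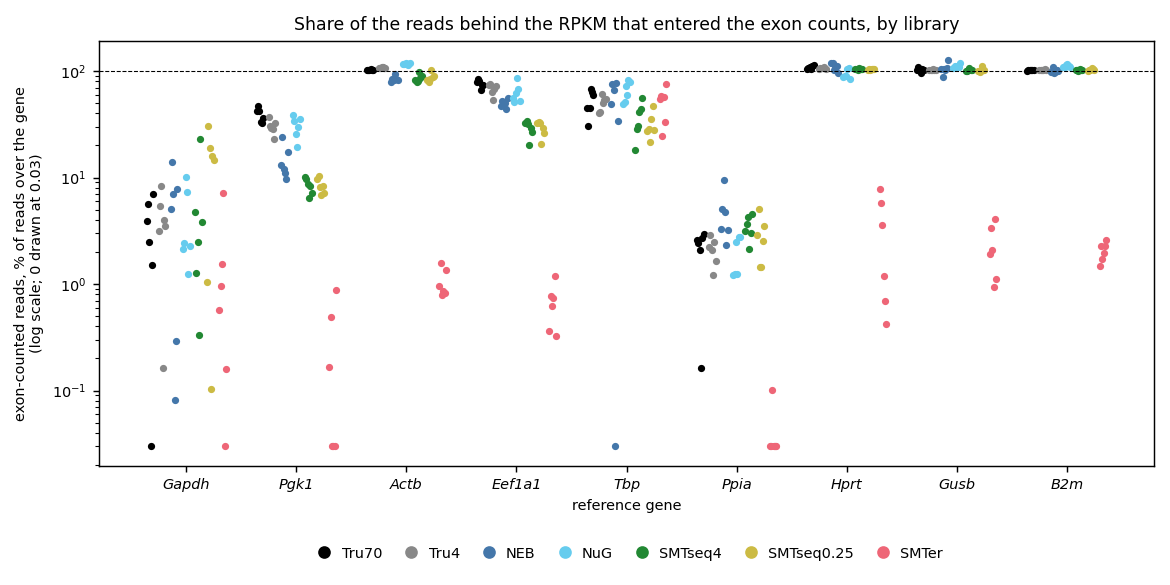
Exon counts as a share of the alignments behind RPKM. The vertical axis is the share in % on a log scale, with values of 0 drawn at 0.03, the horizontal axis lists the 9 genes, each point is a library coloured by protocol, and the dashed line marks 100%. Outside SMTer, Actb, Hprt, B2m and Gusb lie around the line, while the medians of Gapdh and Ppia are 3.85% and 2.67%.

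For Gapdh this left few counts. Outside SMTer its exon counts ranged from 0 to 849 with a median of 83, while the alignments over the gene ranged from 272 to 10567. Relative to the median gene of the same library, the exon counts per kilobase were lower than RPKM by a mean log2 difference of -5.07 for Gapdh, -5.27 for Ppia, -2.40 for Pgk1, -1.17 for Tbp and -0.96 for Eef1a1, with a library at 0 set to 3 counts. The same difference was 0.03 for Actb, 0.14 for Hprt, 0.14 for B2m and 0.15 for Gusb. The 5 genes with a gap were the 4 with copies over their whole coding sequence and Tbp, and the part of the copies in the gap was not tested.

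The copies had RPKM of their own. The 268 copies of Gapdh that could be followed in the tables together held 1.41 times as many alignments as Gapdh itself. The 3 with the highest mean RPKM, Gm12033, Gm5559 and Gm13394, stood at 14.4, 14.4 and 11.7, against a median of 10.1 for Gapdh outside SMTer. For Ppia the copies held 8.37 times as many alignments as the gene, led by Gm10123 with a mean RPKM of 647, Gm6061 with 461 and Gm13493 with 234. For Pgk1 the ratio was 1.68 over 2 copies that could be followed, Gm5537 with a mean RPKM of 86.3 and Pgk1-ps3, at 0, while Pgk1-rs7, at 89.5, could not be. For Eef1a1 the ratio was 0.785, with Gm13456 at 443, and for Actb it was 0.632, with Gm12715 at 119, Gm15725 at 102 and Actg1, the gene of gamma actin, at 101. For Tbp the ratio was 266 over 190 genes, which were found through 1.40% of its windows. Of the 280 genes that shared these windows 201 were protein coding and 4 were pseudogenes. The ratio takes all alignments over such a gene, not those of the shared windows alone. Mean RPKM of these copies runs over all 42 libraries, and RPKM counts an alignment at each place it was reported. The levels of Gapdh, Ppia, Pgk1, Eef1a1 and Actb and of their copies are thus uncertain in both tables. The level of Tbp differed between the tables as well, and the part of its shared windows was not tested.

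In SMTer few alignments entered the exon counts, also for the genes without copies. The share had a median of at most 2.36% for 8 genes there, and for Actb, Hprt, B2m, Gusb, Pgk1, Eef1a1 and Ppia it lay below every library elsewhere. Gapdh (0% to 7.24%) and Tbp, with a median of 56.2% (24.6% to 74.9%), lay within their range elsewhere. Relative to the median gene of the library, the exon counts of Tbp were above its RPKM by a mean log2 difference of 3.46 in SMTer, and those of Actb below it by -2.07, while Pgk1, with 3 libraries at 0, stood at -2.43, close to its -2.40 elsewhere. Exon CPM of Tbp ranged from 27.5 to 177 in SMTer, with a median of 148.2, and from 0 to 56.5 elsewhere, with a median of 13.95. Pdcd2, which overlaps Tbp on the other strand, ranged from 0 to 19.97 CPM in SMTer and from 0 to 24.4 elsewhere. The study describes SMTer as strand specific, the strand setting of the counting was not given in the sources used here, and its part in the levels of Tbp was not tested.

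Actb, whose product polymerizes into actin filaments, gave the clearest separation of the fractions. In Tru70 the input libraries of the 3 mice held 536, 469 and 444 CPM and the IP libraries 4270, 5583 and 4923 CPM. In Tru4 input held 477, 442 and 412 CPM and IP 5478, 5845 and 5832 CPM. In NEB input held 444, 509 and 365 CPM and IP 4204, 5366 and 4182 CPM. All IP libraries of these protocols lay above all input libraries. NuG gave lower values, with 226, 198 and 209 CPM in input and 2684, 3441 and 3094 CPM in IP. SMTseq4 gave 381, 475 and 387 CPM in input and 3256, 3162 and 2995 CPM in IP, and SMTseq0.25 gave 361, 370 and 302 against 3205, 2702 and 2735 CPM. SMTer stood lowest, with 115, 60.3 and 129 CPM in input and 536, 251 and 623 CPM in IP. The groups did not overlap in any of the 7 protocols. By RPKM the input libraries of Tru70 held 105, 99.5 and 91.6 and the IP libraries 730, 1097 and 968, and the fractions were again apart in all 7 protocols.

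Eef1a1, which delivers aminoacyl-tRNA during elongation, went the other way in most protocols. In Tru70 it held 2662, 2646 and 2457 CPM in input and 1803, 1645 and 1601 CPM in IP. In Tru4 it held 2195, 2094 and 1899 CPM in input and 1419, 1388 and 1268 CPM in IP. In SMTseq4 it held 583, 497 and 457 CPM in input and 436, 404 and 404 CPM in IP. IP lay below input without overlap in 5 protocols, Tru70, Tru4, NEB, SMTseq4 and SMTseq0.25. In NuG the order was turned, with 528, 450 and 447 CPM in input and 2096, 971 and 833 CPM in IP. The turn depended on the scaling, since the difference in NuG was 1.49 (log2) by total counts and -0.09 with the TMM factors explained below (edgeR, adjusted p = 0.835). RPKM showed the same orders in these 6 protocols, with 227, 232 and 218 in Tru70 input, 166, 154 and 150 in Tru70 IP, 69.3, 65.99 and 65.8 in NuG input and 134, 81.9 and 78.2 in NuG IP, where the mean rise of 0.50 (log2) was under the 0.98 of the median gene. In SMTer, where the fractions overlapped, IP was higher in each mouse by CPM, by 0.55, 0.18 and 0.37 (log2), and lower in each by RPKM, by -1.03, -0.55 and -0.61.

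Tbp, needed for transcription by all nuclear RNA polymerases, was among the lowest of the 9 genes by RPKM. Tru70 gave 7.25, 4.202 and 4.98 CPM in input and 8.53, 17.2 and 20.4 CPM in IP. NuG gave 8.02, 10.6 and 15.6 CPM in input and 32.9, 47.0 and 56.5 CPM in IP. NEB gave 15.7, 15.6 and 8.67 CPM in input and 0, 29.0 and 21.7 CPM in IP, and the 0 allows up to 0.198 CPM. The fractions were apart, IP above input, in 5 protocols by CPM and in 2, Tru4 and NuG, by RPKM. In SMTseq4 RPKM was 0.784, 0.749 and 0.822 in input and 0.352, 0.643 and 0.759 in IP, with mouse 1 lowest.

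**Figure D2:**
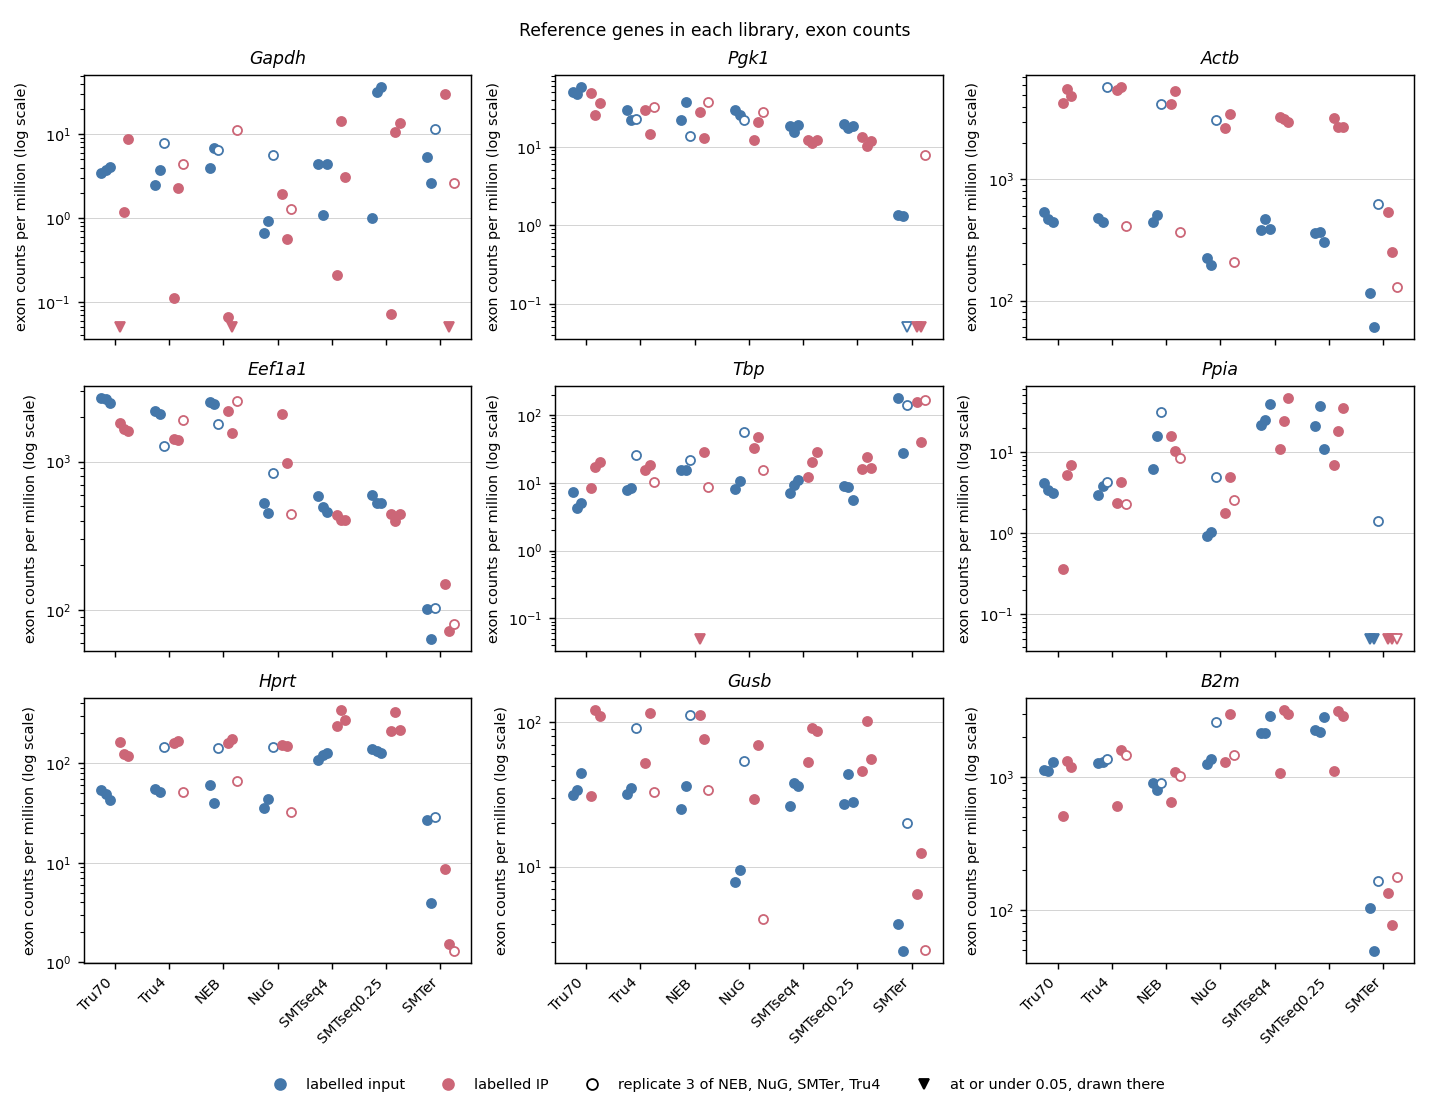
Exon CPM of the 9 genes by library. Each panel is a gene, the vertical axis is CPM on a log scale, the horizontal axis lists the 7 protocols, blue points are libraries labelled input and red points libraries labelled IP, open points are replicate 3 of NEB, NuG, SMTer and Tru4, and triangles are values at or under 0.05 CPM. The open points of Actb lie with the other fraction, and Gapdh spans 0 to 37.0 CPM outside SMTer.

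Of the glycolytic genes, Gapdh oxidizes glyceraldehyde 3-phosphate and Pgk1 makes ATP from the product. By exon counts Gapdh was scattered within groups. Tru70 gave 3.45, 3.73 and 4.02 CPM in input and 0, 1.17 and 8.86 CPM in IP, where the 0 allows up to 0.108 CPM. SMTseq0.25 gave 1.01, 31.5 and 37.0 CPM in input and 0.0716, 10.8 and 13.5 CPM in IP. NEB gave 3.95, 6.92 and 11.3 CPM in input and 0.0661, 0.0366 and 6.54 CPM in IP. The fractions overlapped in all 7 protocols, with mouse 1 at or under 0.208 CPM in IP of Tru70, Tru4, NEB, SMTseq4 and SMTseq0.25. RPKM of Gapdh was closer together, with 13.5, 10.9 and 25.9 in Tru70 input, 12.0, 12.0 and 19.6 in Tru70 IP, 11.5, 11.8 and 23.9 in SMTseq4 input and 4.37, 5.27 and 7.14 in SMTseq4 IP. IP lay below input in both SMART-Seq v4 protocols, and mouse 3 was highest in input and IP of all 7 protocols.

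Pgk1 was lower in IP than in input without overlap in NuG, SMTseq4 and SMTseq0.25, by CPM and by RPKM. In SMTseq4 it held 18.2, 15.4 and 18.9 CPM in input and 12.2, 11.3 and 12.2 CPM in IP. In NuG it held 29.4, 25.3 and 27.7 CPM in input and 12.3, 20.5 and 21.7 CPM in IP. In Tru70 the fractions overlapped, with 50.01, 46.4 and 58.6 CPM in input and 48.3, 25.4 and 36.1 CPM in IP. In SMTer it held 1.33, 1.31 and 7.90 CPM in input and was at 0 in the 3 IP libraries, which allows up to 6.46, 4.65 and 4.28 CPM, so an order could not be told at this depth. The lowest RPKM of Pgk1 outside SMTer was 2.24 and the highest 8.74.

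Ppia, the prolyl isomerase, had levels that differed between protocols more than between fractions. In Tru70 it held 4.11, 3.43 and 3.11 CPM in input and 0.358, 5.27 and 6.87 CPM in IP. In SMTseq4 it held 21.6, 24.9 and 39.4 CPM in input and 10.9, 23.9 and 46.0 CPM in IP. In SMTer it was at 0 in 5 of 6 libraries, with 1.43 CPM in the other. The fractions overlapped in all 7 protocols by CPM, while protocols differed. By RPKM the SMART-Seq v4 libraries were the highest of the input libraries, with 92.5, 100.02 and 136 in SMTseq4 and 96.4, 109 and 111 in SMTseq0.25, against 26.2, 25.3 and 26.3 in Tru70 input. RPKM of IP lay above input without overlap in Tru70, Tru4 and NuG and below it in SMTseq0.25, where the IP libraries held 38.3, 64.3 and 94.3.

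Hprt, of purine salvage, was higher in IP without overlap in the 6 protocols other than SMTer by CPM. Tru70 gave 54.2, 48.8 and 42.5 CPM in input and 162, 125 and 117 CPM in IP. SMTseq4 gave 108, 121 and 127 CPM in input and 236, 342 and 273 CPM in IP. NuG gave 35.5, 44.1 and 32.4 CPM in input and 150, 150 and 147 CPM in IP, the tightest of its IP groups. By RPKM the fractions were apart in 4 protocols, Tru70, Tru4, NEB and NuG, while in SMTseq4 they overlapped at 1.79, 2.21 and 2.38 in input and 2.21, 3.87 and 3.30 in IP. In SMTer the 6 libraries ranged from 1.32 to 28.5 CPM, across the floor of 3 counts.

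Gusb, the lysosomal glucuronidase, and B2m, which pairs with MHC class I heavy chains, shared a low value of mouse 1 in several IP groups. Gusb gave 31.2, 34.0 and 44.9 CPM in Tru70 input and 30.7, 122 and 110 CPM in Tru70 IP. In Tru4 it gave 31.7, 34.9 and 33.1 CPM in input and 52.0, 116 and 91.9 CPM in IP. In NEB, by contrast, the IP libraries held 112, 76.6 and 113 CPM, with mouse 1 not the lowest. IP of Gusb lay above input without overlap in Tru4, NEB, NuG, SMTseq4, SMTseq0.25 and SMTer by CPM. By RPKM it did so in 4 protocols, Tru4, NEB, NuG and SMTer. In SMTer it held 3, 2 and 2 counts in input and 3, 8 and 14 in IP, of which 4 values were at or under the floor of 3 counts. B2m gave 1141, 1115 and 1296 CPM in Tru70 input and 514, 1314 and 1189 CPM in Tru70 IP. In SMTseq4 it gave 2158, 2144 and 2886 CPM in input and 1078, 3197 and 2993 CPM in IP. B2m of mouse 1 was the lowest of its IP group in these protocols, in Tru4 with 607, 1590 and 1376 CPM, in NuG with 1306, 2959 and 2581 CPM and in NEB with 654, 1090 and 905 CPM, and its fractions overlapped in all 7 protocols by CPM. By RPKM they overlapped in 6, while in SMTseq0.25 IP, with 67.5, 222 and 214, lay below input, with 240.3, 254 and 334. The same RNA was used in each of them, so these repeats are not independent.

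**Figure D3:**
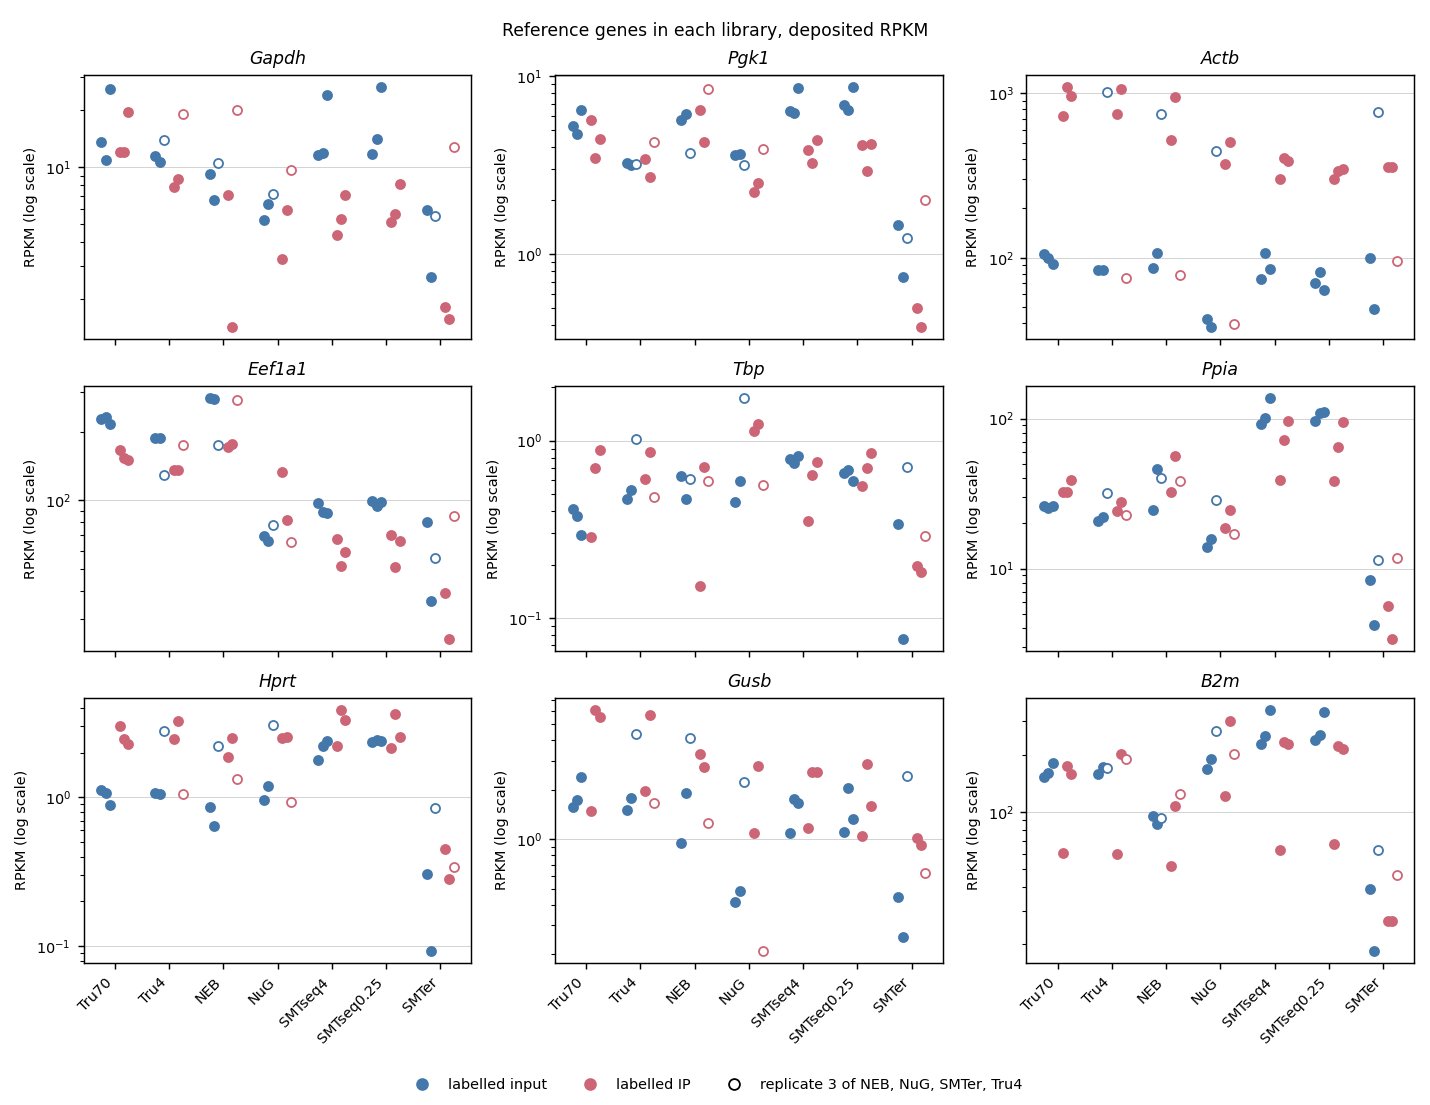
RPKM of the 9 genes by library. Each panel is a gene, the vertical axis is RPKM on a log scale, the horizontal axis lists the 7 protocols, blue points are libraries labelled input and red points libraries labelled IP, and open points are replicate 3 of NEB, NuG, SMTer and Tru4. Gapdh spans 1.42 to 26.6 outside SMTer, and among input libraries Ppia is highest in SMTseq4 and SMTseq0.25.

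The first comparison asked which of the genes differed between IP and input within a protocol. Exon counts were tested with edgeR, which centres the libraries on the bulk of genes by TMM factors. A gene passed at a Benjamini-Hochberg adjusted p under 0.05 over all genes tested. In Tru70 4 of the 9 genes passed, against 34.8% of all genes tested. Actb rose by 2.92 (log2, SE 0.19, adjusted p = 1.18e-05) and Hprt by 1.07 (SE 0.24, adjusted p = 0.00714). Eef1a1 changed by -1.03 (SE 0.19, adjusted p = 0.00287) and Pgk1 by -0.90 (SE 0.30, adjusted p = 0.0459). Pgk1 did not pass without mouse 2 (adjusted p = 0.166) or mouse 3 (adjusted p = 0.304), and Hprt (adjusted p = 0.0578) and Eef1a1 (adjusted p = 0.0735) did not pass without mouse 2. With the mouse as a block, B2m passed as well, with -0.77 (adjusted p = 0.0185). Scaling by total counts in place of TMM would add 0.43 to each of these values and turns no direction among the 4.

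In SMTseq4 5 of the 9 passed, against 59.2% of all genes. They were Actb with 2.38 (SE 0.21, adjusted p = 8.22e-06), Hprt with 0.71 (SE 0.18, adjusted p = 0.00653), Gusb with 0.63 (SE 0.22, adjusted p = 0.0308), Eef1a1 with -0.84 (SE 0.18, adjusted p = 0.00243) and Pgk1 with -1.10 (SE 0.19, adjusted p = 0.000747). Hprt did not pass without mouse 2 (adjusted p = 0.0624), nor Gusb without mouse 2 (adjusted p = 0.0995) or mouse 3 (adjusted p = 0.125). With the mouse as a block, B2m (-0.67, adjusted p = 0.0316), Ppia (-0.80, adjusted p = 0.00534) and Tbp (0.56, adjusted p = 0.0266) passed too. In SMTseq0.25 3 of the 9 passed, against 36.9% of all genes. Actb rose by 2.60 (SE 0.21, adjusted p = 5.35e-05), Eef1a1 changed by -0.82 (SE 0.17, adjusted p = 0.00617) and Pgk1 by -1.10 (SE 0.31, adjusted p = 0.022), and the block added Gapdh with -2.32 (adjusted p = 0.00785). Pgk1 did not pass with any 1 mouse left out (adjusted p from 0.0662 to 0.121), nor Eef1a1 without mouse 2 (adjusted p = 0.061) or mouse 3 (adjusted p = 0.0517). These counts lay near the shares of all genes and are no result about the 9 genes as a group.

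In NEB, NuG, SMTer and Tru4 as labelled, edgeR called 0 of 30 tests of the 9 genes, 0 at an unadjusted p under 0.05 as well, and DESeq2 called 0. Over all genes the share was 0.0%, with 455 of 44628 tests at an unadjusted p under 0.05. Without replicate 3, where no exchange is needed and 2 mice remain, Actb passed in each of the 4, with 2.90 in NEB (adjusted p = 0.0236), 2.33 in NuG (adjusted p = 5.6e-06), 1.73 in SMTer (adjusted p = 0.000604) and 3.19 in Tru4 (adjusted p = 0.000327). Hprt (1.19, adjusted p = 0.00561) and Eef1a1 (-1.04, adjusted p = 0.018) passed too in Tru4, and Pgk1 (-2.26, adjusted p = 8.76e-05) and B2m (-0.84, adjusted p = 0.0444) in NuG.

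After the exchange, NEB called 1 of 9 (11.2% of all genes), Actb with 2.92 (SE 0.25, adjusted p = 0.0003), and the block added Eef1a1 with -0.91 (adjusted p = 0.03). Tru4 called 6 of 9 (50.1% of all genes). Actb rose there by 3.18 (SE 0.19, adjusted p = 2.13e-06), Hprt by 1.09 (SE 0.16, adjusted p = 0.000515), Gusb by 0.84 (SE 0.21, adjusted p = 0.0093) and Tbp by 0.66 (SE 0.21, adjusted p = 0.0267). Eef1a1 changed by -1.10 (SE 0.19, adjusted p = 0.00117) and B2m by -0.74 (SE 0.27, adjusted p = 0.0442), and the block added Pgk1 with -0.88 (adjusted p = 0.00722).

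NuG called 4 of the 8 tested after the exchange (44.9% of all genes): Actb with 2.28 (SE 0.18, adjusted p = 2.39e-07), Gusb with 1.22 (SE 0.33, adjusted p = 0.00837), Pgk1 with -2.19 (SE 0.25, adjusted p = 6.09e-06) and B2m with -0.85 (SE 0.24, adjusted p = 0.0102). Here the TMM factors of the fractions differed by 1.58 on the log2 scale, and scaled by total counts B2m turned to 0.72. The block added Hprt with 0.43 (adjusted p = 0.0485). In SMTer 4 of the 9 had counts enough to be tested and Actb passed, with 1.64 (SE 0.29, adjusted p = 0.000394), against 26.1% of all genes. Actb, the only member called in each of the 7 protocols, did so with the 8 fractions exchanged.

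**Figure D4:**
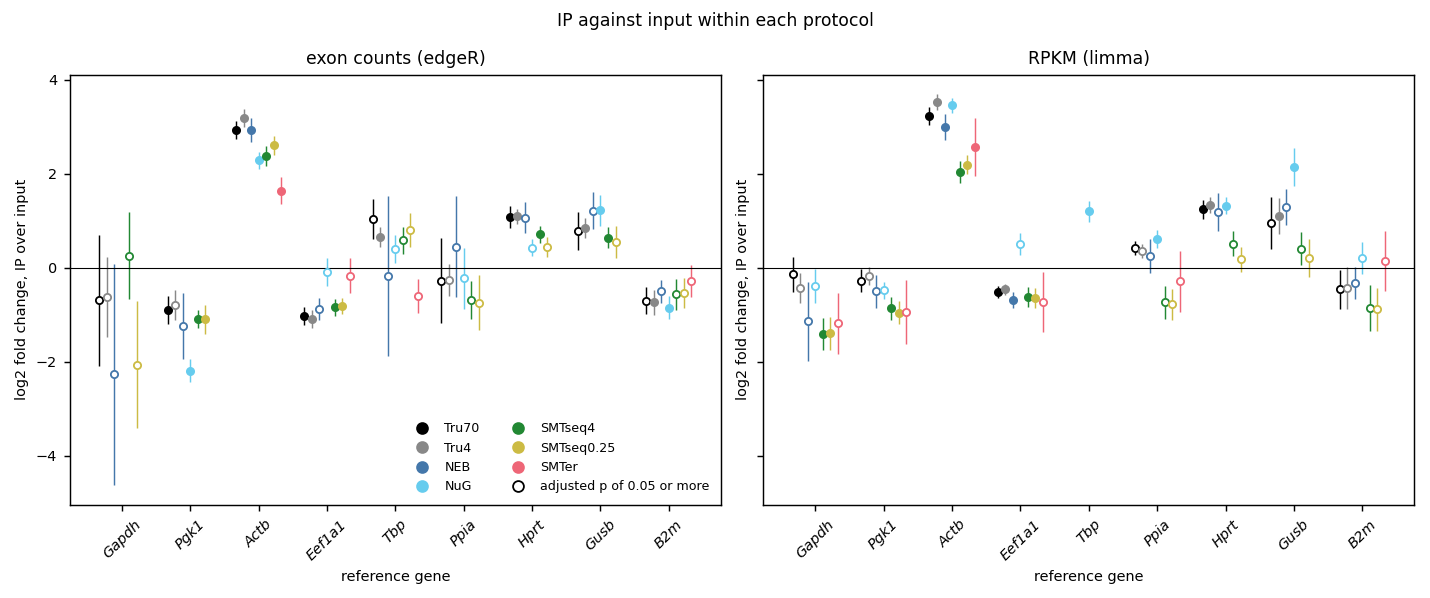
IP against input for the 9 genes. The vertical axis is the log2 difference of IP from input, and the horizontal axis lists the 9 genes. The left panel gives edgeR on exon counts and the right panel limma on RPKM. Points are protocols with bars of 1 standard error, and filled points passed an adjusted p under 0.05. NEB, NuG, SMTer and Tru4 are shown with exchanged fractions. Actb lies between 1.64 and 3.18 by counts.

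RPKM was tested with limma on log2(RPKM + 0.1), which understates differences of low genes, and without centring of the libraries. Tru70 called 3 of 8 (46.2% of all genes): Actb with 3.22 (SE 0.19, adjusted p = 0.000152), Hprt with 1.24 (SE 0.21, adjusted p = 0.00386) and Eef1a1 with -0.53 (SE 0.13, adjusted p = 0.0172), where the median gene stood at 0.17. SMTseq4 called 4 of 8 (55.9% of all genes): Actb with 2.04 (SE 0.24, adjusted p = 0.000198), Gapdh with -1.42 (SE 0.34, adjusted p = 0.0085), Pgk1 with -0.87 (SE 0.24, adjusted p = 0.0149) and Eef1a1 with -0.63 (SE 0.21, adjusted p = 0.0344). SMTseq0.25 called the same 4 of 8 (51.7% of all genes), with 2.19, -1.40, -0.96 and -0.65. In both the median gene stood at about the level of Eef1a1, at -0.48 and -0.51, and with libraries centred on their median neither Eef1a1 (-0.18 and -0.21) nor Pgk1 (-0.42 and -0.52) passed. The block added Ppia in both, with -0.74 (adjusted p = 0.0255) and -0.78 (adjusted p = 0.0429). Without mouse 2, Actb passed in the 3 protocols, as did Gapdh in SMTseq4, and Hprt, Eef1a1, Pgk1 and Gapdh of SMTseq0.25 did not.

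In the 4 other protocols as labelled, limma called 0 of 31 tests of the 9 genes on RPKM, 0 at an unadjusted p under 0.05, and 0.0% of all genes, with 297 of 28600 at an unadjusted p under 0.05. Without replicate 3 Actb passed in NuG (3.43, adjusted p = 0.00381), Tru4 (3.40, adjusted p = 0.0122) and SMTer (2.35, adjusted p = 0.0434) and did not in NEB (2.86, adjusted p = 0.107). After the exchange NEB called 2 of 8 (17.7% of all genes), Actb with 2.99 (SE 0.28, adjusted p = 0.003) and Eef1a1 with -0.68 (SE 0.17, adjusted p = 0.0429), the second of which did not pass with the block (adjusted p = 0.08). Tru4 called 4 of 8 (50.8% of all genes): Actb with 3.52, Hprt with 1.34, Gusb with 1.11 and Eef1a1 with -0.46. SMTer called 1 of 6 (21.1% of all genes), Actb with 2.57 (SE 0.62, adjusted p = 0.000484). The block added Gapdh with -1.19 (adjusted p = 0.0039) and Eef1a1 with -0.73 (adjusted p = 0.0274). NuG called 5 of 9 (65.3% of all genes), Actb with 3.45, Gusb with 2.14, Hprt with 1.32, Tbp with 1.19 and Ppia with 0.61. The median gene rose by 0.98 in NuG, and relative to it Hprt (0.28), Tbp (0.16) and Ppia (-0.43) did not pass, while Gapdh (-1.43) and Pgk1 (-1.52) did.

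The next comparison set each protocol against Tru70, which the study took as its standard, in the same fraction. The comparisons share the Tru70 libraries. By edgeR on exon counts SMTseq4 input called 5 of 9 (35.8% of all genes): Ppia rose by 3.03 (SE 0.27, adjusted p = 5.4e-05), Hprt by 1.30 (SE 0.15, adjusted p = 0.000171) and B2m by 1.03 (SE 0.16, adjusted p = 0.00103), while Eef1a1 changed by -2.33 (SE 0.13, adjusted p = 5.75e-06) and Pgk1 by -1.55 (SE 0.17, adjusted p = 0.000138). SMTseq0.25 input called 6 of 9 (28.3% of all genes), the same 5 with 2.76, 1.51, 1.08, -2.19 and -1.45, and Actb with -0.44 (SE 0.14, adjusted p = 0.0406). SMTseq4 IP called 3 of 9 (19.8% of all genes), Hprt with 1.04, Pgk1 with -1.66 and Eef1a1 with -2.04. SMTseq0.25 IP called 2 of 9 (12.6% of all genes), Pgk1 with -1.65 and Eef1a1 with -1.97. The block added Actb with -0.65, B2m with 1.22 and Ppia with 3.09 in SMTseq4 IP, Actb with -0.76, B2m with 1.22, Ppia with 2.695 and Hprt with 0.89 in SMTseq0.25 IP, and Tbp with 0.77 in SMTseq4 input. Eef1a1 and Pgk1 were thus lower in both fractions of both SMART-Seq v4 protocols, in input with any mouse left out. In IP neither passed without mouse 2 or mouse 3 (adjusted p from 0.0632 to 0.195), and Actb of SMTseq0.25 input did not pass with any 1 mouse left out.

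Tru4 used the kit of Tru70 with 4 ng in place of 70 ng. By the study's methods Tru4 also had a reduced end-repair reaction, no size selection and more PCR cycles. These cannot be told apart from the amount of RNA. As labelled, NEB and Tru4 together gave 0 of 36 calls by edgeR, 5 at an unadjusted p under 0.05 and 3 by DESeq2, and all 4 exchangeable protocols gave 13 of 71 (16.2% of all genes), in NuG and SMTer. After the exchange, Tru4 called 0 of 18, 3 of them at an unadjusted p under 0.05, against 0.981% of all genes in input and 0.0392% in IP. The mice could be paired, and with the mouse as a block Tru4 input called 3 of 9 (15.6% of all genes), B2m with 0.22 (SE 0.04, adjusted p = 6.67e-05), Eef1a1 with -0.30 (SE 0.03, adjusted p = 5.34e-08) and Pgk1 with -0.87 (SE 0.12, adjusted p = 3.65e-06). Tru4 IP called 4 of 9 (9.91% of all genes), Actb with 0.20, B2m with 0.22, Eef1a1 with -0.33 and Pgk1 with -0.75 (SE 0.19, adjusted p = 0.0251). Among the genes called, Pgk1 was the farthest from Tru70 in both fractions.

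NEB called 0 of 18 after the exchange, 2 at an unadjusted p under 0.05, against 1.45% of all genes in input and 0.242% in IP, and the block added B2m in input with -0.46 (adjusted p = 0.0183). NuG input called 5 of 9 (50.1% of all genes): Tbp with 2.10 (SE 0.34, adjusted p = 0.000289), B2m with 1.24, Hprt with 0.67, Gusb with -1.29 and Eef1a1 with -1.41 (SE 0.13, adjusted p = 4.25e-06). Scaled by total counts, Hprt turned to -0.37 there. NuG IP called 4 of 9 (43.9% of all genes), Tbp with 1.51, B2m with 1.13, Actb with -0.75 and Pgk1 with -1.13, and the block added Eef1a1 with -0.57 and Gusb with -0.71.

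SMTer input called 5 of 9 (35.7% of all genes), Tbp with 6.22 (SE 0.50, adjusted p = 1.34e-06), B2m with -1.60, Gusb with -1.71, Pgk1 with -2.02 and Eef1a1 with -3.04, where Gusb did not pass with the block (adjusted p = 0.154). SMTer IP called 6 of 9 (35.1% of all genes), Tbp with 4.42, B2m with -1.31, Actb with -1.79, Hprt with -1.90, Eef1a1 with -2.29, and Pgk1, which was at 0 in the 3 SMTer libraries, so that no fold is given. The block added Gapdh with 3.84 (adjusted p = 0.0454), which rests on at most 14 counts in a SMTer library. The median gene stood at -0.41 in SMTer input and at -0.24 in IP. The TMM factors of SMTer and Tru70 differed by -1.94 (log2) in input and by -1.70 in IP. Scaled by total counts, SMTer input stood at 4.28 for Tbp, -3.54 for B2m, -3.65 for Gusb, -3.97 for Pgk1 and -4.98 for Eef1a1. In IP Tbp stood at 2.72 and Eef1a1 at -3.99 by total counts, and no gene called turned. Tbp, the gene whose exon counts kept their share of alignments in SMTer, rose, and the other genes that passed without the block were lower.

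By limma on RPKM SMTseq4 input called 4 of the 8 tested (53.9% of all genes): Ppia with 2.06, Hprt with 0.97, B2m with 0.73 and Eef1a1 with -1.30. SMTseq0.25 input called these 4 with 2.02, 1.15, 0.74 and -1.21, and Actb with -0.46, which made 5 of 8 (51.5% of all genes). In IP SMTseq4 (43.5% of all genes) and SMTseq0.25 (41.3% of all genes) called the same 3 of 8, Gapdh with -1.35 and -1.19, Actb with -1.35 and -1.49, and Eef1a1 with -1.40 and -1.34, where the median gene stood at -0.56 and -0.59. The 4 other protocols called 14 of 63 as labelled (28.8% of all genes) and 22 of 64 after the exchange (38.8% of all genes). All 22 were in NuG and SMTer, 6 of 8 in NuG input (79.5% of all genes), 3 of 9 in NuG IP (58.9%), 6 of 7 in SMTer input (81.3%) and 7 of 8 in SMTer IP (70.8%). NEB and Tru4 called 0 of 32 by limma, 6 of them at an unadjusted p under 0.05, against 8.71% of all genes in NEB input, 0.933% in NEB IP, 16.1% in Tru4 input and 0.0% in Tru4 IP. With the block Tru4 input called Actb with -0.28, Eef1a1 with -0.29 and Pgk1 with -0.60, NuG IP added B2m with 0.84, Tbp with 1.10, Gusb with -0.93 and Ppia with -0.54, and SMTer IP added Actb with -0.997. In SMTseq4 and SMTseq0.25 IP the block added Ppia with 0.91 and 0.83 and Gusb with -0.88 and -1.09. It also added Pgk1 in SMTseq4 and SMTseq0.25 input, with 0.36 and 0.42. Pgk1 was lower than in Tru70 by exon counts in the same libraries, so its direction depended on which table was read.

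How stable each gene was over protocols was described by the SD of its group means of log2(value + 0.1), without SMTer and with exchanged fractions. The added 0.1 understates the spread of low genes. The SD is given as a description without a test. By RPKM of input Tbp had an SD of 0.32, Pgk1 0.46, Gapdh 0.47, Actb 0.47, B2m 0.53, Hprt 0.57, Gusb 0.77, Eef1a1 0.82 and Ppia 1.19, where the median gene had 0.88. By RPKM of IP Hprt had 0.15, lower than all but 0.545% of the genes compared, followed by Pgk1 with 0.30, B2m with 0.46, Tbp with 0.50, Gusb with 0.51, Ppia with 0.59, Gapdh with 0.61, Eef1a1 with 0.67 and Actb with 0.68, where the median gene had 0.77. The group means of Hprt in IP differed by 1.37-fold between the highest and the lowest protocol, and in input Hprt was sixth. Within IP groups the SD of replicates by RPKM was 0.27 for Hprt, larger than its SD over protocols. The same held for Gapdh (0.72), Tbp (0.56), B2m (0.87) and Gusb (0.73), and in input for Gapdh (0.61). The same 3 mice were in every protocol, so a shift shared by a mouse adds to the SD of replicates and not to that over protocols. Whether the order of these genes would hold in other mice was not tested.

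By CPM the order was another. In input Tbp and Actb had an SD of 0.44 each, B2m and Pgk1 0.57 each, Hprt 0.75, Gusb 0.92, Gapdh 1.17, Eef1a1 1.22 and Ppia 1.67, where the median gene had 0.86. The highest group mean of Ppia, in SMTseq4, was 19.0 times the lowest, in NuG, while the highest of Actb was 2.29 times its lowest. In IP Gusb had 0.35, Actb 0.42, Hprt 0.43, Pgk1 0.59, B2m 0.65, Gapdh 0.90, Eef1a1 0.97, Tbp 1.13 and Ppia 1.41, where the median gene had 0.87. The SD of replicates within a group was larger than this for Gapdh, with 2.90, for Tbp, with 1.93, for Gusb, with 0.66, and for B2m, with 0.72. Here too a shift shared by a mouse adds to the SD of replicates alone, and whether the order would hold in other mice was not tested. With all 7 protocols as labelled the median SD of the 9 genes was 1.31 in input and 1.51 in IP by CPM, and 0.833 and 0.842 by RPKM. Ppia was the least steady in 3 of the 4 orders, and Eef1a1 was above the median gene in input and IP by CPM and below it by RPKM.

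**Figure D5:**
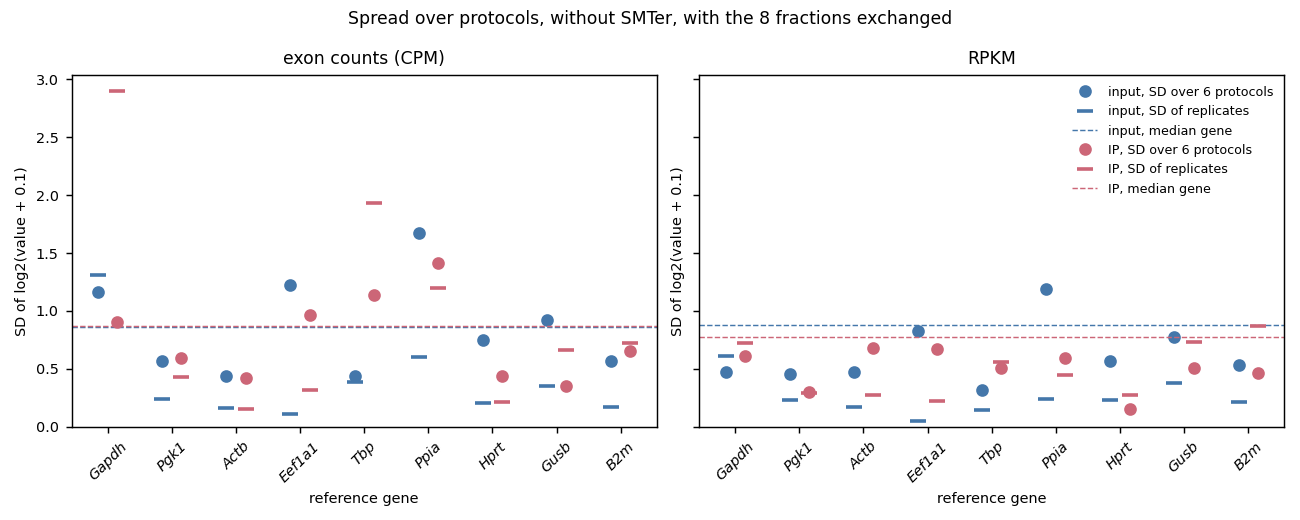
Spread of the 9 genes over 6 protocols. The vertical axis is the SD of log2 group means over the protocols other than SMTer, with 8 fractions exchanged. The horizontal axis lists the 9 genes, with CPM on the left, RPKM on the right, and input and IP in different colours. Points are genes, bars give the SD of replicates within groups, and dashed lines mark the median gene. Ppia reaches 1.67 in input by CPM, and Hprt lies at 0.15 in IP by RPKM.

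Ratios between the genes do not depend on the scaling of a library, apart from the 0.1 added before the logarithm. That addition narrows the spread of low values, and by RPKM Tbp ranged from 0.0762 to 1.73 and Hprt from 0.0936 to 3.87. For each gene the SD of its log2 ratio to each of the other 8 was averaged. Over all 42 libraries the mean by RPKM was lowest for Tbp and Hprt, with 0.99 each, and highest for Actb, with 1.72, and the steadiest pair was Hprt and Tbp, with an SD of 0.72. By CPM it was lowest for Gusb, with 1.75, and B2m, with 1.77, and highest for Tbp, with 2.98. Within the 18 input libraries without SMTer the steadiest pair was Hprt and B2m in both tables, with 0.44 by CPM and 0.32 by RPKM. Within the 18 IP libraries it was Actb and Pgk1 by CPM, with 0.56, and Actb and Eef1a1 by RPKM, with 0.44. Actb, far apart between the fractions, was thus part of the steadiest pair within IP.

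Other genes had a lower SD than the 9 over the 14 group means. Among 9297 genes with a mean of at least 10 CPM, the lowest SD of log2 CPM was that of Ppp2r5e, with 0.24, followed by Hbp1 with 0.30, Ikbkg with 0.31, Acadsb with 0.32 and Pcnp with 0.35. Gusb ranked 2932 with 1.22, and the others ranked between 3936, Tbp, and 8381, Ppia, while Gapdh was below 10 CPM. Without SMTer and with exchanged fractions the 5 genes ranked between 119, Ppp2r5e, and 799, Pcnp, and B2m came to 1195 with 0.58, Pgk1 to 1544 and Actb to 8319. The 5 were picked for this low SD, so their values are a description.

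The genes whose log2 CPM over the 14 group means was most like that of a member were found by Pearson correlation, in which points share libraries and depth. For Hprt this was Rcn2, with r of 0.996, for Actb Cerk, with 0.991, for Gusb Ptp4a3, with 0.991, for Eef1a1 Hebp1, with 0.986, for B2m Rpl39, with 0.985, for Pgk1 Smco4 and for Ppia Psmc1, with 0.982 each, for Tbp Tulp4, with 0.974, and for Gapdh Eif2d, with 0.771. Rcn2 and Psmc1 were still the most like after the exchange of fractions, whereas for Actb, Eef1a1 and Gusb it was then Hfe2, Tmbim6 and Slc3a2.

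The rest of glycolysis shows Gapdh and Pgk1 among their neighbours. Of 17 other genes of the pathway tested in Tru70 by edgeR, 6 rose and 6 fell in IP, with a median of -0.55, where the median of all genes was -0.03 and 34.8% of all genes were called. Those that rose were Hk1 (2.04), Hk2 (6.07) and Hk3 (4.65), the hexokinases outside liver parenchyma, Pfkp (2.79), Aldoa (1.88) and Pkm (3.58). Among those that fell were Pklr (-3.22), the pyruvate kinase of liver and red cells, Pfkm (-1.81), Tpi1 (-1.15) and Ldha (-0.69). In the same IP libraries the hepatocyte sum was lower and the Kupffer cell and erythroid sums were higher, and their part in these values was not tested. In SMTseq4 6 rose and 10 fell (59.2% of all genes called) and in SMTseq0.25 6 and 9 (36.9%). After the exchange it was 6 and 9 in Tru4 (50.1%), 6 and 6 in NuG (44.9%), 3 and 3 in NEB (11.2%) and, of 10 tested, 1 and 2 in SMTer (26.1%). As labelled, none of these genes passed in the 4 exchangeable protocols.

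Other reference genes of qPCR also differed between the fractions. Of 15 tested in Tru70, where 34.8% of all genes were called, 4 rose, Tubb5 (0.95), Polr2a (0.96), Ubb (0.79) and Ywhaz (1.71), and 6 fell, among them Sdha (-1.14), Ipo8 (-1.15), Rpl32 (-0.94), Rplp0 (-0.88) and Rps18 (-0.78). The median of the 15 was 0.30, opposite in sign to the larger count. In SMTseq4 4 rose and 4 fell (59.2% of all genes called), and in SMTseq0.25 3 and 2 (36.9%). Of 11 reference genes proposed from RNA-seq, Reep5 rose (1.79) and Emc7 fell (-0.94) in Tru70, and the other 9 did not pass, with a median of 0.30 over the list, which shares Gpi1 with the glycolysis list. In SMTseq4 2 of these rose and 1 fell, and in SMTseq0.25 2 rose and none fell. Against Tru70, SMTseq4 input had 2 qPCR genes higher and 9 lower and 6 RNA-seq genes higher and none lower (35.8% of all genes called), and SMTseq0.25 input had 2 and 9, and 5 and none (28.3%). Both lists were compiled from textbook knowledge, with earlier results of these libraries known.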

How the data were processed

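The 9 genes and all gene lists were chosen with earlier results of these data known. Per the labels and the study's methods, reads were cleaned by the authors with Trimmomatic, cut to one length with the FASTX Toolkit, aligned to GRCm38 with TopHat and counted on exons of Ensembl genes. HTSeq and Bedtools are named, and the strand setting is not given in the sources used here. The authors deposited raw counts for 47729 genes. RPKM was deposited for the same set. Replicates were not pooled. RPKM multiplied by gene span (GENCODE M21, which holds 99.1% of the identifiers) and by mapped alignments was whole within 0.02 reads for 89.5% of these genes and for all 9, so span was used in place of the exon length first planned, in the comparison of the tables.

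Counts were tested with edgeR 4.0.16 (TMM, filterByExpr, glmQLFTest), RPKM with limma 3.58.1 (trend) on log2(RPKM + 0.1) for genes with at least 1 RPKM in 3 libraries, each protocol by itself, in R 4.3.3, with Benjamini-Hochberg adjustment and a limit of 0.05. DESeq2 1.42.0, other scalings, filters, pseudocounts, lengths, left-out mice, exchanged fractions and a block were alternatives. Same-numbered replicates are the same mouse by the methods. Correlations of their deviations were 0.05 to 0.11 in Tru70, 0.22 to 0.30 in SMTseq4 and 0.04 to 0.09 in SMTseq0.25. After the exchange they were 0.22 to 0.28 in Tru4, 0.06 to 0.09 in NuG, 0.02 to 0.05 in SMTer and -0.02 to 0.03 in NEB. As labelled, all were negative in these protocols. Without the block, the p-values measure the spread between 3 mice. The block takes out the level of each mouse, so its p-values measure the spread that remains. The exact identity of replicate files was checked, and 0 pairs were identical. The fits were tested on simulated data. Copies were found in annotated transcripts with BLAST 2.17.0, since no genome sequence was used here, which narrows the planned search of genomic copies. Named genes are the 9, up to 3 copies of each by mean RPKM, the genes most like each over 14 group means, the 5 steadiest genes, and 3 lists, of which some genes are not reported here. Floors and ranges cover counting error only. Tables and figures were made with pandas 2.3.3, numpy 2.4.6 and matplotlib 3.10.9 in Python 3.11.15.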

Additional observations from a re-analysis of the deposited data

Results flagged for a closer look

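In 6 cases every mouse moved one way between IP and input in 1 protocol and the other way in another, and none of these differences was tested. As labelled, the mean log2 difference of IP from input of Hprt was 1.46 in Tru70 and -2.41 in SMTer by CPM, a gap of 3.88, and that of Ppia was 0.41 in Tru70 and -0.78 in SMTseq0.25 by RPKM, a gap of 1.19. The first rests on SMTer libraries whose fraction of replicate 3 went against the label, and some of which held Hprt under the floor of 3 counts. With fractions exchanged, Eef1a1 stood at 1.33 in NuG and -0.62 in Tru70 by CPM, a gap of 1.95, and at 0.50 in NuG and -0.73 in SMTer by RPKM, a gap of 1.23. Ppia stood at 0.61 in NuG and -0.78 in SMTseq0.25 by RPKM, a gap of 1.38, and Tbp at 1.19 in NuG and -0.42 in SMTseq4, a gap of 1.61. In NuG the median of all genes rose by 0.98 in RPKM of IP against input. It stood at 0.17 in Tru70, -0.48 in SMTseq4, -0.51 in SMTseq0.25 and, exchanged, -0.09 in SMTer. The gaps by RPKM include these shifts of all genes. With TMM factors in place of total counts, Eef1a1 stood at -0.09 in NuG (edgeR, adjusted p = 0.835) and at -1.03 in Tru70.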

How the results depend on the processing

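Counts of calls among the 9 genes moved as follows, with the share of all genes called under the same setting in brackets. IP against input by exon counts gave 12 of 57 with fractions as labelled (21.8%), 24 of 57 exchanged (39.8%), 32 of 57 exchanged with the replicate block (41.3%), and 5 to 16 with a mouse left out (15.7% to 28.2%), 5 without mouse 2. Against Tru70 by counts 29 of 107 (18.9%) became 54 of 108 exchanged with the block (26.4%) and 15 to 29 with a mouse left out (7.76% to 13.6%). IP against input by RPKM gave 11 of 55 (23.2%), 23 of 55 exchanged (45.1%), 23 of 55 exchanged and centred on library medians (48.4%), 26 of 55 exchanged with the block (48.5%), 30 of 63 by edgeR on recovered reads exchanged (35.1%), and 4 to 13 with a mouse left out (10.3% to 18.4%). Against Tru70 by RPKM 29 of 95 (35.2%) became 19 of 95 centred (28.0%), 51 of 96 exchanged with the block (47.0%) and 12 to 22 with a mouse left out (11.6% to 20.4%). The block on labelled fractions gave 17 (22.3%), 34 (19.2%), 13 (24.6%) and 36 (37.2%). Beyond the calls named in the report, the block changed none in Tru70 and SMART-Seq v4 as labelled or in the other protocols exchanged.

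The median SD over protocols by CPM of input, 1.31, was 1.12 with TMM, 1.42 exchanged, 0.668 without SMTer, 0.749 with both, and 1.31 to 1.47 with a mouse left out. By CPM of IP 1.51 became 1.15 with TMM, 1.25 without the 10 largest genes, 1.38 with a pseudocount of 1, 0.704 without SMTer, 0.651 also exchanged, and 1.54 to 1.62 with a mouse left out. By RPKM of input 0.833 became 0.652 with a pseudocount of 1, 0.550 without SMTer, 0.535 also exchanged, and 0.724 to 0.896. By RPKM of IP 0.842 became 0.609, 0.574, 0.508, and 0.788 to 0.915. The median log2 gap between exon counts and RPKM, -0.51, was -0.93 with the longest transcript, -0.77 with the union of exons, and -0.58 to -0.37 with a mouse left out.

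Of 143 gene results 5 changed direction, 1 of them under 2 settings, and beyond the settings' own scaling the cause was not tested. Ppia in NuG turned to -0.53 by edgeR on recovered reads, exchanged. Actb of SMTer IP against Tru70 turned to 0.016 by the same and to 0.27 exchanged and centred, and Gapdh, Pgk1 and Ppia of NuG input against Tru70 by RPKM turned to 0.16, 0.80 and 0.60 exchanged and centred. Scaling by total counts was not among these settings. Under it B2m in NuG turned to 0.72 and Hprt of NuG input against Tru70 to -0.37, both exchanged. SMTer, with at most 762562 counts, limits what can be said of Gapdh, Pgk1 and Ppia there.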
